A study of Macaca mulatta with 2 samples.

Results

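The genes described here are 10 genes of pigment cells and of the retinal pigment epithelium, namely *TYR*, *TYRP1*, *DCT*, *PMEL*, *MLANA*, *MITF*, *OCA2*, *SLC45A2*, *RPE65* and *BEST1*. They were taken by symbol from a table of 16684 genes, and all 10 were in it. The table held the levels of untreated, wild-type macaque (*Macaca mulatta*) optic nerves in 2 libraries, Rep1 and Rep2, which were not pooled. The nerves came from a 12-year-old male per the study's methods, whereas the deposited design names more than 1 animal, so it is not known whether the libraries came from the same animal. They were collected after death as tissue left over from other work, and no age is given for a second animal. The levels are in TPM, the share of all length-corrected reads of a library scaled to a fixed total. With 1 condition there was no comparison between conditions, and the results are levels and their spread between the libraries.

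Melanin is made in melanosomes, which are organelles of melanocytes and of the retinal pigment epithelium. MITF is the transcription factor that drives many of the genes, tyrosinase and its relatives carry out the chemistry, PMEL forms the fibrils on which melanin is laid down, and OCA2 and SLC45A2 are membrane transporters that keep the organelle fit for tyrosinase. The pigment epithelium lies beneath the photoreceptors and also runs the visual cycle, in which RPE65 regenerates the chromophore. Melanocytes are known in the choroid of the eye and in the meninges, so a dissected optic nerve can carry pigment cells at its edges, while its own glia and axons contain no melanosomes. In a bulk sample, fewer cells of a type and less RNA per cell cannot be told apart, and the level of a gene does not say which cell it came from.

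All 10 genes were above 0 in Rep2, and 5 were above 0 in Rep1, namely *MITF*, *RPE65*, *BEST1*, *PMEL* and *DCT*. *MITF* was the highest in both libraries and *RPE65* the next. The classic melanocyte genes were low, with *PMEL* reaching 10.4 TPM, *TYRP1* 4.80 TPM and *MLANA* 3.05 TPM in Rep2, and *TYR* staying under 1 TPM. For all listed genes the median was 2.09 TPM in Rep1 and 7.93 in Rep2. Rep1 was the shallower library, since a read there was worth 17.2 times as many TPM as a read in Rep2. A value of 0 was given to 6425 genes (38.5%) in Rep1, compared with 2082 (12.5%) in Rep2, so a value of 0 in Rep1 is common and does not show that a transcript was missing. The total number of reads is unknown, and no interval or detection limit can be given per gene.

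**Figure D1:**
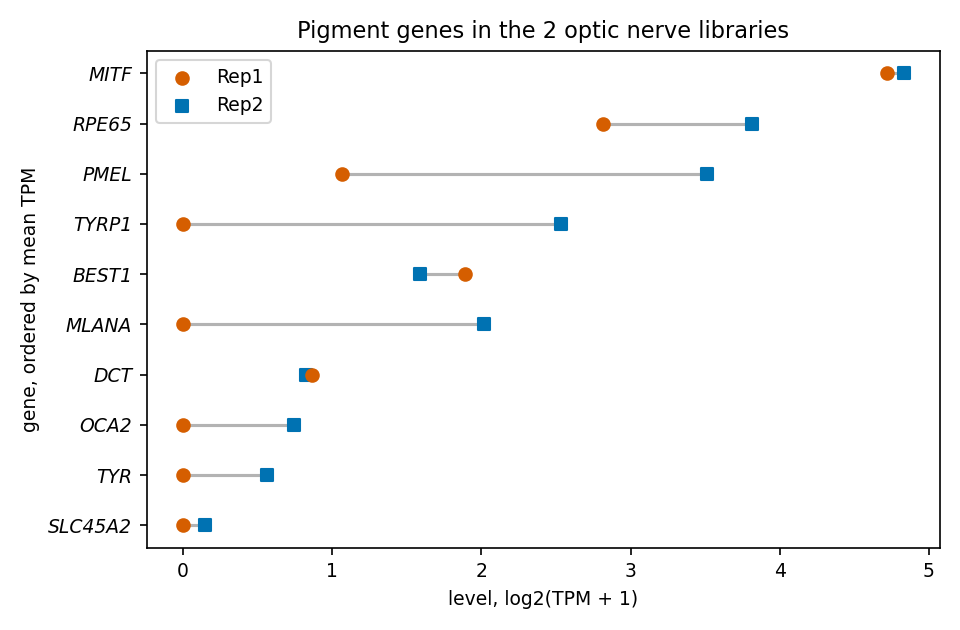
Level of each gene in Rep1 (circles) and Rep2 (squares) as log2(TPM + 1), with the genes ordered by mean TPM and a line joining the libraries. *MITF*, *DCT* and *BEST1* lay close together in the libraries, while *TYRP1*, *MLANA*, *OCA2*, *TYR* and *SLC45A2* were listed at 0 in Rep1.

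*MITF* (gene ID 695537) spans bases 125870290 to 126093861 of chromosome 2 in Mmul_10, on the plus strand. It stood at 25.3 TPM in Rep1 and 27.5 in Rep2, a mean of 26.4 ± 1.49 TPM (SD, n = 2 libraries), or percentile 69.1 when ranked among the 14693 genes detected in either library. The libraries were thus within 1.08-fold of each other. These values rested on at least 18 reads in Rep1 and 335 in Rep2, the smallest whole numbers that give the ratio of the values. A protein-coding gene on the opposite strand overlaps *MITF* by 539 bases. The annotation holds 7 transcripts of *MITF* from 4 start positions, of which 2 are neighbouring bases. A level per gene does not separate the melanocyte form of *MITF* from the forms other cells use. Its relatives *TFEB* and *TFE3*, which drive lysosomal genes in many cell types, were at similar levels, with *TFEB* at 53.1 TPM in Rep1 and 31.4 in Rep2 and *TFE3* at 22.4 and 17.3 TPM. *TFEC*, the fourth member, was at 1.59 TPM in Rep1 and 0.138 in Rep2.

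The tyrosinase family is made up of *TYR*, which encodes the enzyme that starts melanin synthesis from tyrosine, *TYRP1*, and *DCT*, the dopachrome tautomerase. *TYR* (gene ID 705792) lies on chromosome 14 from 82310166 to 82431142 on the plus strand and has 5 exons. *TYRP1* (gene ID 714646) lies on chromosome 15 from 70880394 to 70896634 and has 7 exons, and *DCT* (gene ID 694577) lies on chromosome 17 from 76221039 to 76265333 and has 8 exons, both on the minus strand. For *TYRP1* and *DCT*, the 150 bases before the annotated start are shown because MITF is known to act on this family through E-box letters near the start. The starts are those of predicted RefSeq transcripts, and the windows were read from the Mmul_10 genome on the strand of the gene, 5′ to 3′, at chr15:70896635-70896784 and chr17:76265334-76265483. Capitals mark CATGTG, an E-box form, on either strand.
TYRP1: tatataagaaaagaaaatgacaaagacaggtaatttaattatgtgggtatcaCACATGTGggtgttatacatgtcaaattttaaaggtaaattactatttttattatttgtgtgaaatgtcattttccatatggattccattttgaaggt
DCT: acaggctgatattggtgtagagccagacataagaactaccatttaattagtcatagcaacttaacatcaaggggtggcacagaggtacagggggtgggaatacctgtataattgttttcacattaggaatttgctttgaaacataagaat

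*TYRP1* carried CATGTG, on both strands, in the run CACATGTG at 98 bases before the start, where the letters of the strands overlap. *DCT* carried neither CATGTG nor CACGTG. Over the windows of 250 bases before and 50 after the start, 1 of the 10 genes held CATGTG on either strand, against 9.90% of the 20773 windows of protein-coding genes, and none of the 10 held CACGTG, against 7.72%. These are matches of letters in a short window at predicted starts.

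*TYRP1* was the highest of the family, at 4.80 TPM in Rep2, and was listed at 0 in Rep1. *DCT* stood at 0.825 TPM in Rep1 and 0.768 in Rep2, a mean of 0.796 ± 0.0401 TPM (SD, n = 2). The values of *DCT* differed by 1.07-fold, but the one in Rep1 may rest on as little as 1 read, against at least 16 in Rep2. *TYR* was at 0.477 TPM in Rep2 and was listed at 0 in Rep1. In Rep2 the order within the family was therefore *TYRP1*, *DCT*, *TYR*, and in Rep1 *DCT* alone was above 0. Transcripts of the 3 genes shared no stretch of 50 bases with each other or with any other annotated gene, although a transcribed pseudogene overlaps *TYR* on the opposite strand over 5914 bases.

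*PMEL*, which encodes the melanosome fibril protein, lies on chromosome 11 from 55508762 to 55520715 on the minus strand (gene ID 710921). It stood at 1.09 TPM in Rep1, resting on at least 1 read, and at 10.4 TPM in Rep2, resting on at least 164 reads. The mean was 5.74 ± 6.58 TPM (SD, n = 2), and the libraries were 9.54-fold apart, the widest gap among the genes that were above 0 in both. *MLANA*, which encodes a small melanosome membrane protein also called MART-1, lies on chromosome 15 from 77859791 to 77878200 on the minus strand (gene ID 715882). It was at 3.05 TPM in Rep2 and was listed at 0 in Rep1. A long noncoding RNA on the opposite strand spans all 18410 bases of *MLANA*, but their transcripts shared no stretch of 50 bases. Of the stretches of *MLANA*, 1.08% were also found in another annotated gene.

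*SLC45A2* was the lowest of the 10 genes in Rep2, and *OCA2* was above *TYR* and *SLC45A2* there. *OCA2*, mutated in oculocutaneous albinism, lies on chromosome 7 from 986188 to 1272840 on the plus strand (gene ID 712220) and was at 0.679 TPM in Rep2. *SLC45A2*, mutated in another form of albinism, lies on chromosome 6 from 34076243 to 34116330 on the minus strand (gene ID 698246) and was at 0.111 TPM in Rep2. Both were listed at 0 in Rep1. Of the stretches of 50 bases in their transcripts, 14.3% of those of *OCA2* were also found in a gene annotated as P protein-like on an unplaced scaffold, P protein being the product of *OCA2*. For *SLC45A2*, 8.38% were also found in a long noncoding RNA on the opposite strand, which is not among the listed genes. A long noncoding RNA on the same strand overlaps the span of *OCA2* by 2682 bases, and a pseudogene on the opposite strand by 985 bases. Another pseudogene on the opposite strand overlaps *SLC45A2* by 1789 bases. How reads from these stretches and overlaps were assigned is not known.

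*RPE65*, the isomerohydrolase of the visual cycle, lies on chromosome 1 from 155973615 to 155996422 on the plus strand (gene ID 701764) and has 14 exons. It stood at 6.05 TPM in Rep1 and 13.1 in Rep2, a mean of 9.56 ± 4.95 TPM (SD, n = 2), at percentile 50.01. These values rested on at least 16 reads in Rep1 and 593 in Rep2, and the libraries were 2.16-fold apart. *RPE65* was above the 8 genes other than *MITF* in both libraries, with *PMEL* the nearest in Rep2 and *BEST1* in Rep1. It shared no stretch of 50 bases with another gene, and no annotated gene overlaps it.

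*BEST1*, which encodes the bestrophin-1 chloride channel of the pigment epithelium, lies on chromosome 14 from 12160971 to 12181408 on the minus strand (gene ID 718993). It stood at 2.6998 TPM in Rep1 and 2.01 in Rep2, a mean of 2.36 ± 0.487 TPM (SD, n = 2), resting on at least 5 and 64 reads. *BEST1* was, with *DCT*, a gene whose level was higher in Rep1. Its annotated span overlaps *FTH1*, the ferritin heavy chain gene, by 57 bases on the opposite strand. *FTH1* was at 1348 TPM in Rep1 and 4910 in Rep2, and the part of its reads in the level of *BEST1* was not tested.

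Ordered by mean TPM, the genes ran from *MITF* through *RPE65*, *PMEL*, *TYRP1*, *BEST1*, *MLANA*, *DCT*, *OCA2* and *TYR* to *SLC45A2*. Of the 9 pairs of neighbours, the values of *MITF* and *RPE65* did not overlap between libraries, and neither did those of *DCT* and *OCA2*, though the gap of the latter pair was 0.768 TPM against 0.679 TPM. The other 7 pairs overlapped, so their order is not set beyond the spread of the libraries. Among themselves, the first 4 genes stood in this order in each library, with *TYRP1* at 0 in Rep1. *BEST1* was above *TYRP1* and *PMEL* in Rep1 and below both in Rep2.

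The zeros of Rep1 were set beside those of all genes of like level. Of the genes above 0 in Rep2, 30.4% were listed at 0 in Rep1, and of the 10 pigment genes 5 were. The share depends on level. Between 0.1 and 1 TPM in Rep2, 75.3% of 1995 genes were listed at 0 in Rep1, and 3 of the 4 pigment genes at that level were (*TYR*, *OCA2* and *SLC45A2*, but not *DCT*). Between 1 and 5 TPM the share was 50.8% of 2718 genes, and *TYRP1* and *MLANA* were at 0 while *BEST1* was not. *PMEL* and *RPE65*, between 5 and 20 TPM, and *MITF*, between 20 and 100 TPM, were above 0 in both libraries, as were most genes at those levels, where 23.6% and 6.11% were at 0.

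**Figure D2:**
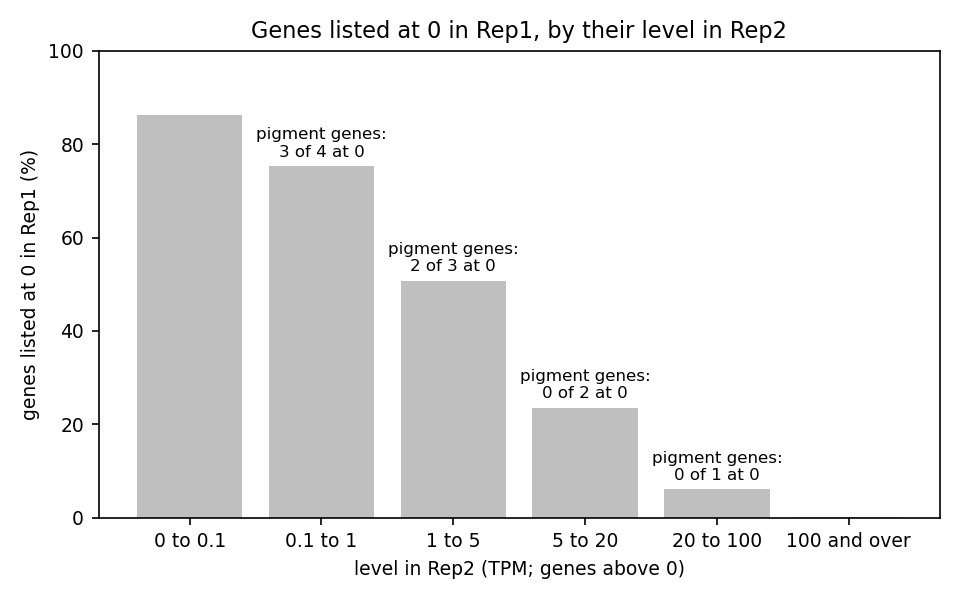
Share of genes listed at 0 in Rep1 (bars, percent) by their level in Rep2 (TPM), with the number of pigment genes at 0 written above the bars. The share fell from 75.3% between 0.1 and 1 TPM to 6.11% between 20 and 100 TPM, and 3 of 4 and 0 of 1 pigment genes were at 0 there.

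The difference between the libraries was taken as log2(TPM + 1) in Rep1 minus Rep2, a scale that understates the change of low genes, and a gene was called when it differed at least 2-fold on it. With 1 library on each side, a call has no replicate check. In Rep2, 3 of the 10 genes were at least 2-fold higher (*TYRP1*, *PMEL* and *MLANA*), against 51.3% of all 14693 genes. None of the 10 was at least 2-fold higher in Rep1, against 14.8% of all genes. *PMEL* differed by -2.45. *TYRP1* and *MLANA* were listed at 0 in Rep1, so no fold is given for them. *RPE65* lay just inside the threshold at -0.99, and *MITF* (-0.11), *DCT* (0.046) and *BEST1* (0.30) were closer to 0. The median over the 10 genes was -0.66, beside -1.07 over all genes, and the former includes *TYR*, *OCA2* and *SLC45A2*, whose differences are small because the pseudocount of 1 TPM exceeds their levels.

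As most genes were lower in Rep1, the libraries were also scaled by the median of ratios over the 10168 genes above 0 in both. This takes out a log2 shift of -1.19. It leaves a median difference of -0.38 over all genes above 0 in either library, so the scale is not centred on them. After scaling, *TYRP1*, *PMEL* and *MLANA* were at least 2-fold higher in Rep2, against 33.8% of all genes. The direction of *TYRP1* and *MLANA* was fixed, as a value of 0 in Rep1 stays 0 when scaled. *MITF* (1.04) and *BEST1* (1.12) were at least 2-fold higher in Rep1, against 23.7% of all genes. *RPE65* came to 0.074. The near-equal levels of *MITF* and *BEST1* as deposited thus hold for the TPM scale, and relative to the general shift these genes lay toward Rep1. *DCT* (0.57 after scaling) may rest on 1 read in Rep1, so neither its near-equal level nor its direction can be relied on. *PMEL*, whose value in Rep1 may rest on 1 read, lay toward Rep2 on both scales. For *TYRP1* and *MLANA* scaling could show no other direction.

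**Figure D3:**
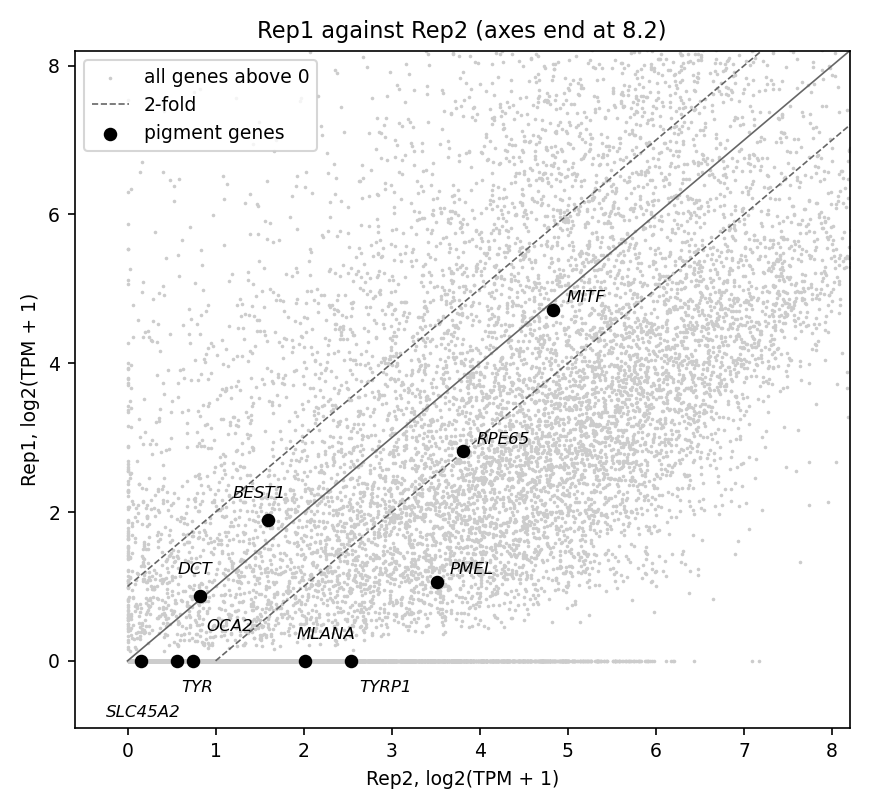
Level in Rep1 against Rep2, both as log2(TPM + 1), for all genes detected in either library (grey) and the 10 pigment genes (black), with the line of equal levels and dashed lines at 2-fold. *PMEL*, *TYRP1* and *MLANA* lay beyond the lower dashed line, *RPE65* lay on it at -0.99, and 5 genes lay at 0 on the Rep1 axis.

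Around these genes, 7 lists of the pigment pathway were examined, which include the 10 genes. Of all genes, 51.3% were at least 2-fold higher in Rep2 and 14.8% in Rep1. After scaling these shares were 33.8% and 23.7%. In the tyrosinase family, 1 of 3 (*TYRP1*) was at least 2-fold higher in Rep2 and none in Rep1. Among 10 proteins of the melanosome fibril and membrane, 6 were at least 2-fold higher in Rep2 and 1 in Rep1, both as deposited and after scaling, and the median difference was -2.23. The highest was *GPNMB*, a glycoprotein that macrophages also express, at 9.99 TPM in Rep1 and 60.5 in Rep2. *CTNS*, the lysosomal cystine transporter, was at 28.9 TPM in Rep2 and *TPCN2*, an endolysosomal cation channel, at 11.2 TPM, both listed at 0 in Rep1. *ATP7A*, a copper transporter that supplies tyrosinase with its metal, was the gene that was higher in Rep1, at 6.58 TPM against 0.759 TPM. *GPR143*, the ocular albinism receptor, was at 6.34 TPM in Rep2 and at 0 in Rep1. Apart from *GPNMB*, *ATP7A* and *PMEL*, all the genes of this list were listed at 0 in Rep1.

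Among 22 genes of melanosome transport and biogenesis, most of which serve lysosome-related organelles in many cell types, 16 were at least 2-fold higher in Rep2, where 51.3% of all genes were, and 1 in Rep1, where 14.8% were. After scaling these counts were 13 and 2, beside 33.8% and 23.7% of all genes. The highest levels were those of *BLOC1S1*, a subunit of the BLOC-1 sorting complex, at 531 TPM in Rep1 and 172 in Rep2, and of *AP3B1*, a subunit of the AP-3 adaptor, at 144 and 77.2 TPM. They were followed by *BLOC1S2* (17.7 TPM in Rep1 and 139.5 in Rep2) and *BLOC1S6* (20.7 and 59.7 TPM). The gene furthest toward Rep2 was *DTNBP1*, another BLOC-1 subunit, at 2.83 TPM in Rep1 and 50.5 in Rep2. *RAB38*, a small GTPase that carries tyrosinase to the melanosome, was at 4.90 and 6.39 TPM.

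Of 14 lineage genes of melanocytes, 13 were in the table, and *MC1R* was not analysed here. As deposited, 6 were at least 2-fold higher in Rep2 and 2 in Rep1, near the 51.3% and 14.8% of all genes. After scaling 5 and 3 were, beside 33.8% and 23.7% of all genes. *ERBB3*, a receptor of the neural crest and of glia, was at 2.96 TPM in Rep1 and 29.1 in Rep2, *KITLG*, the ligand of KIT, at 15.6 and 12.04 TPM, and *SOX10*, which oligodendrocytes also express, at 6.31 and 14.4 TPM. *SNAI2* was the furthest toward Rep2, at 0.920 and 17.3 TPM, and *TFAP2A* the furthest toward Rep1, at 4.18 and 0.0973 TPM. The melanocyte receptor *KIT* was at 0.518 TPM and *PAX3* at 0.0301 TPM in Rep2, both at 0 in Rep1. The 4 genes of the MITF family had a median difference of 0.55. Of these, 1 (*TFEC*) was at least 2-fold higher in Rep1 as deposited and all 4 after scaling, beside 14.8% and 23.7% of all genes.

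Of 11 genes of the visual cycle and retinoid transport, 8 were at least 2-fold higher in Rep2 and 2 in Rep1 as deposited, beside 51.3% and 14.8% of all genes. After scaling 3 and 2 were, near the 33.8% and 23.7% of all genes. *RLBP1*, which encodes a retinaldehyde-binding protein shared with Muller glia, was at 76.7 TPM in Rep1 and 6.12 in Rep2, and *RDH10*, a retinol dehydrogenase of many tissues, at 50.5 and 15.1 TPM. *TTR*, the transthyretin carrier, was at 18.6 and 59.0 TPM. *LRAT*, which makes the ester that RPE65 uses, was at 1.13 TPM in Rep2, and *RGR*, an opsin of the pigment epithelium, at 1.54 TPM, both at 0 in Rep1. *RPE65* thus exceeded *LRAT* and *RGR* in both libraries.

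The last list held 18 other genes of the pigment epithelium. Of these, 9 were at least 2-fold higher in Rep2 and 5 in Rep1, beside 51.3% and 14.8% of all genes. After scaling the counts were 8 and 6, beside 33.8% and 23.7% of all genes. The transcription factors of the list were far higher in Rep1, with *PAX6* at 886 TPM against 19.6 TPM, *OTX2* at 769 TPM against 0.0633 TPM and *LHX2* at 136 TPM against 5.70 TPM, and the neural retina also expresses each of them. *TRPM3*, a cation channel, was at 29.2 and 2.27 TPM. *SERPINF1*, the secreted factor PEDF, which fibroblasts express as well, was at 123 TPM in Rep1 and 627 in Rep2, and the integrin subunit gene *ITGB5* at 22.5 and 140.0 TPM. The potassium channel gene *KCNJ13* was at 27.9 and 55.8 TPM, above *RPE65* in both libraries. The epithelial cadherin gene *CDH1*, the furthest toward Rep2, was at 15.2 TPM there and listed at 0 in Rep1. *SLC16A8*, a lactate transporter of the pigment epithelium, was at 4.12 TPM in Rep2 and at 0 in Rep1.

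**Figure D4:**
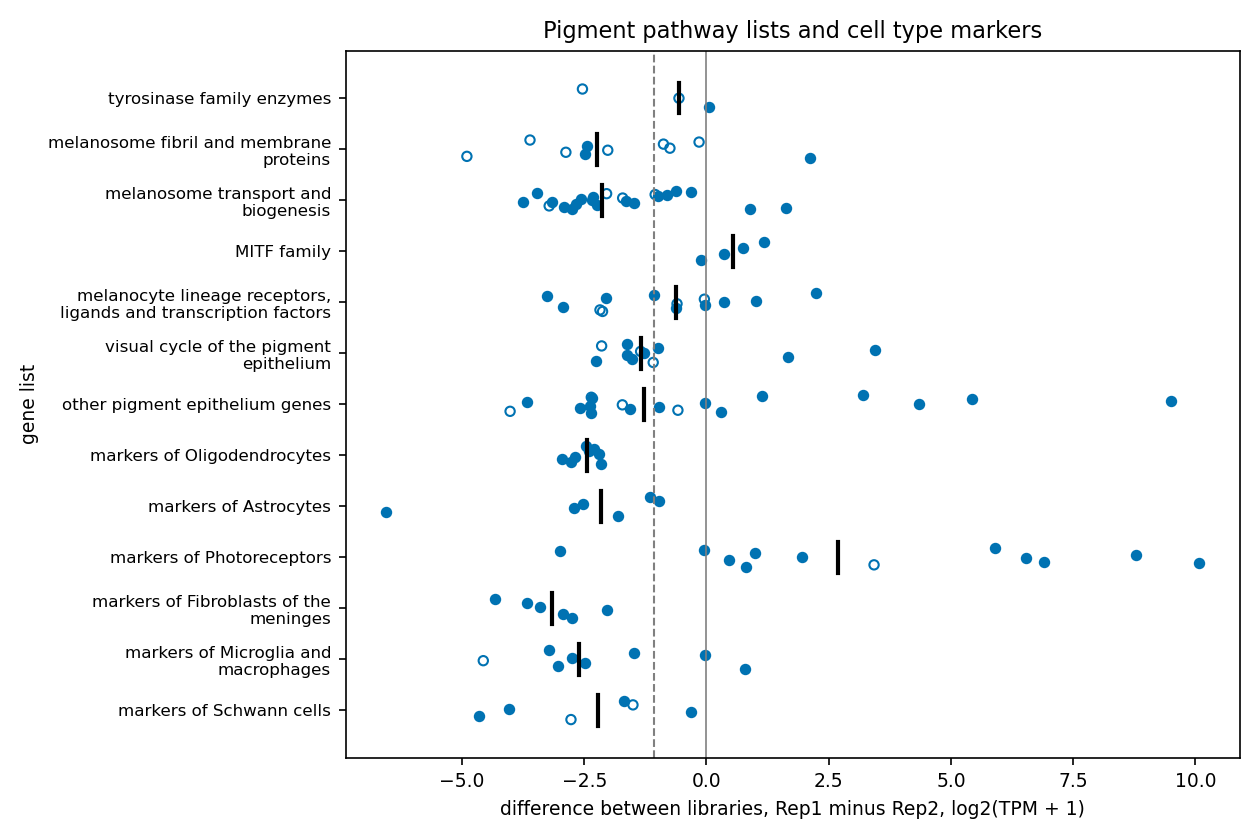
Difference between the libraries (Rep1 minus Rep2, log2(TPM + 1)) of each gene detected in either library, by list. Open circles are genes listed at 0 in a library, bars are list medians, the dashed line is the median of all genes at -1.07 and the solid line is 0. The photoreceptor markers lay mostly to the right, with a median of 2.69, and the markers of nerve and meningeal cells to the left.

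The markers of other cell types that such a nerve can hold moved with the libraries as well. The tissue label was borne by its own markers. The 8 oligodendrocyte markers summed to 46022 TPM in Rep1 and 212406 in Rep2, of which *MBP* made up 43721.5 and 199595 TPM. The 6 astrocyte markers summed to 774 and 5022 TPM, of which *GFAP* made up 658 and 4331 TPM. As deposited, 8 of 8 and 5 of 6 were at least 2-fold higher in Rep2, beside 51.3% of all genes. After scaling 7 and 3 were, beside 33.8% of all genes. Of the 6 markers of meningeal fibroblasts, all were at least 2-fold higher in Rep2, and 5 after scaling, with sums of 1618 and 15164 TPM. The sums of the 6 Schwann cell markers were 86.9 and 1448 TPM, of which *PMP22* made up 82.9 and 1373 TPM. The 8 markers of microglia and macrophages summed to 224.0 and 499 TPM. As deposited, 5 of the 6 Schwann cell markers and 6 of the 8 of microglia and macrophages were at least 2-fold higher in Rep2. After scaling 5 of each were, and 2 markers of microglia and macrophages were at least 2-fold higher in Rep1, beside 23.7% of all genes. Most of the 13 photoreceptor markers went the other way, with sums of 3692 TPM in Rep1 and 28.9 in Rep2. Of 12 above 0, 7 were at least 2-fold higher in Rep1 as deposited and 10 after scaling, beside 14.8% and 23.7% of all genes. *GNAT1* made up 2763 TPM of the sum in Rep1. *ROM1* went toward Rep2, at 1.68 TPM in Rep1 and 20.5 TPM of the sum in Rep2. *SAG* was at 1.74 and 1.82 TPM, and *RP1* was at 0 in both libraries. Beside these lists, the 5 pigment cell markers (*TYR*, *TYRP1*, *DCT*, *PMEL* and *MLANA*) summed to 1.91 TPM in Rep1 and 19.5 in Rep2. The sum in Rep1 was that of *DCT* and *PMEL*, each of which may rest on 1 read there, with the other 3 at 0. The 5 pigment epithelium markers (*RPE65*, *BEST1*, *RLBP1*, *RGR* and *LRAT*) summed to 85.4 and 23.9 TPM, of which *RLBP1* made up 76.7 TPM in Rep1. The sum of the pigment cell markers was thus higher in Rep2, as were the sums of the nerve and meningeal markers. The pigment cell sum in Rep1 may however rest on few reads, and zeros are common there at such levels. Of the 4 pigment epithelium markers other than *RLBP1*, *RPE65*, *LRAT* and *RGR* were higher in Rep2 as deposited and *BEST1* in Rep1. After scaling, the differences of *LRAT* (-0.80) and *RGR* (-1.02) lay toward Rep2 and that of *BEST1* (1.12) toward Rep1, while that of *RPE65* was 0.074. The part of meningeal, choroidal or retinal tissue in these levels was not tested.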

How the data were processed

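Bulk RNA-seq was done on macaque optic nerves without treatment, in 2 libraries of the same condition. Per the study's methods, cDNA was amplified from little RNA with the SMARTer v4 chemistry. Per the labels and methods, the authors ran FastQC 0.11.9, Trim Galore 0.6.6, STAR 2.7.1a on Mmul_10 and featureCounts 1.5.3, and deposited TPM per gene, which keeps no read totals. Gene lengths, strand and treatment of reads with several alignments are not given in the sources used here, so levels of different genes hold for the authors' lengths. The columns are named Rep1 and Rep2 and are not tied to sample titles.

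Levels were used as deposited, with Python 3.11, numpy 2.4.6, pandas 2.3.3 and matplotlib 3.10.9. Differences were taken on log2(TPM + 1), and no p-value was computed. Read numbers are the smallest whole numbers that give the ratio of a gene's values, found for 99.9% of 10168 genes within a tolerance of 1e-12. They are lower bounds, and amplified copies are not independent. The read ratios and calls were tested on simulated data. The genes changed there had levels above those of all the 10 genes but *MITF*, and amplification was not simulated. Calls at the levels of the other pigment genes were therefore not tested. Positions, promoter windows and shared stretches came from the RefSeq annotation and sequence of Mmul_10. The genes, the lists and the motifs were chosen with earlier results of these data known. Named genes were the 10 genes and, of each pathway list, the 4 highest and the furthest in each direction, while the other genes named were chosen after their values were seen. The alternatives tried were each library alone, the geometric mean, other filters, a pseudocount of 0.1, median-of-ratios scaling, and TPM without the 10 most abundant genes. The planned comparison of protein sequences was not run, as no protein table was used here. Some items that the rules name are not reported here.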

Additional observations from a re-analysis of the deposited data

How the results depend on the processing

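No paired analysis was possible because all libraries carry the same condition. The alternatives gave 194 values, which include levels, counts and orders that have no sign. Among the differences, none that was at least 2-fold as deposited changed sign. The sign could not change for genes listed at 0 in a library, such as *TYRP1* and *MLANA*. Of the 10 genes, this left *PMEL* alone as one whose sign could have changed. With a pseudocount of 0.1, the median difference of the 10 genes was -1.81 and 7 genes were at least 2-fold higher in Rep2, because *TYR*, *OCA2*, *SLC45A2* and *RPE65* passed the threshold. The share of all genes was not computed at this pseudocount, so the count of 7 has no background and says nothing particular to these genes. A filter at a mean of 1 TPM, which left out the 4 lowest genes, gave a median of -1.51. Scaling by the median of ratios put 2 genes at least 2-fold higher in Rep1, where none was as deposited, changed the sign of the difference of *MITF* (1.04), and took that of *RPE65* from -0.99 to 0.074. Leaving out the 10 most abundant genes changed that of *DCT* to -0.034 and took *RPE65* past the threshold at -1.17. Of the 45 pairs of genes ordered by mean TPM, 44 kept their order in Rep2 alone, 31 in Rep1 alone, and 44 to 45 under the other settings. In Rep1 the 5 genes at 0 are tied, and tied pairs were counted as not kept. The means of these 5 genes come from Rep2 alone, so their order among themselves there was fixed. The depth of Rep1 limits what can be said of the 5 genes listed at 0 there, and the value of *DCT* or *PMEL* may rest on 1 read.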
